A study of Mus musculus with 9 samples.

Results

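Chemokines are small secreted proteins that direct the migration of leukocytes, and their receptors are G protein-coupled receptors on the responding cells. The gene set described here holds every gene whose platform symbol begins with Ccl, Cxcl, Ccr, Cxcr or Cx3c and goes on with a number, l1 or r1, and whose probe sets carry that symbol alone. It has 49 genes, 33 chemokines and 16 receptors, of 16299 genes with probe sets of a single symbol. Of these, 26 were tested (18 chemokines and 8 receptors), 17 had a mean under the intensity filter of 5.09 on the log2 scale, and 6 had fewer than 3 probe sets. Cxcr7 and Ccrl1 are older symbols of the atypical receptors Ackr3 and Ackr4, and are written here as the platform gives them.

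Perigonadal white fat was taken from mice at 4 months of age, and its total RNA was measured on exon arrays, 3 for each of 3 genotypes. The first is G609G/G609G, homozygous for an Lmna allele known as a progeria model from which a shortened lamin A is spliced. The second is LCS/LCS, homozygous for an Lmna allele known to give lamin C without lamin A, and the control is wild type (WT). The submitters' design text speaks of biological replicates, but the labels tie no array to an animal and do not say whether tissue was pooled, so the p-values below stand for the variation among these arrays. The labels name no promoter or Cre driver for either allele.

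Values are log2 intensities per gene, from which levels of different genes cannot be compared. As deposited, most genes were lower in G609G, with a median log2 fold of -0.47 against WT over the 11342 genes tested and of 0.05 for LCS against WT. Folds of G609G are therefore given relative to the median gene, which lifts the deposited log2 fold by 0.46 against WT (an offset of -0.46) and by 0.50 against LCS (an offset of -0.50), and deposited folds stand beside them where the direction or the call differs. That offset is not equal at all levels: the median deposited log2 fold of G609G minus WT was -0.30 for the 1816 genes with a mean of 6 or less, and -0.58 for the 2609 genes with a mean between 7 and 8. Markers of mature adipocytes had a mean log2 level over 6 genes from 10.99 to 11.03 in G609G, from 12.85 to 12.86 in LCS and from 12.55 to 12.59 in WT. One of them, Lep, had a mean of 4.76 in G609G, under the filter, against 11.78 in LCS and 10.63 in WT. The others had G609G means from 11.70 (Lipe) to 12.83 (Cidec). Skeletal muscle markers, 7 genes, had a mean level of 12.02 to 12.05 in G609G, 5.67 to 5.82 in LCS and 5.33 to 5.42 in WT. Epididymis markers, 7 genes, had 8.72 to 8.92 in G609G, 10.95 to 11.08 in LCS and 12.50 to 12.56 in WT. These 7 did not move alike. Lcn8 had a mean of 4.59 in G609G, 13.08 in LCS and 12.74 in WT. In the same order Crisp1 had 12.84, 11.11 and 12.73, and Defb22 had 11.29, 5.61 and 11.11. The part of muscle or epididymis RNA in the results was not tested.

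Chemokines are grouped by the spacing of their first cysteines into CC (Ccl), CXC (Cxcl) and CX3C (Cx3cl1) proteins. In fat, Ccl2 and its receptor Ccr2 are known for the recruitment of monocytes, Cxcl9 and Cxcl10 are induced by interferon and act on Cxcr3 of T and natural killer cells, and Cxcl13 acts on Cxcr5 of B cells. In a bulk sample, fewer cells of a type and less RNA per cell cannot be told apart.

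Promoter windows of RefSeq (build GRCm38.p6), from 250 bases before to 50 bases after the gene start, were matched for 35 of the 49 genes, among them 17 of the 26 tested. Among all 595 pairs of these windows, local alignment scored the pairs of the neutrophil chemokines Cxcl1, Cxcl2 and Cxcl3 and the pair Ccl6 and Ccl9 as the 4 most alike. Ccl6 and Ccl9, CC chemokines of myeloid cells that lie close together on chromosome 11, are shown because both were called higher in LCS. Capitals mark the stretch that aligns between them, in which 59 of 67 aligned bases are identical (88.1%). It runs from 59 bases before the gene start to base 15 after it in Ccl6. In Ccl9 it runs from 18 bases before the start to base 49 after it, so most of it there lies after the gene start. The Ccl6 window is chr11:83593038-83593337 and the Ccl9 window chr11:83578587-83578886, both on the minus strand.
Ccl6: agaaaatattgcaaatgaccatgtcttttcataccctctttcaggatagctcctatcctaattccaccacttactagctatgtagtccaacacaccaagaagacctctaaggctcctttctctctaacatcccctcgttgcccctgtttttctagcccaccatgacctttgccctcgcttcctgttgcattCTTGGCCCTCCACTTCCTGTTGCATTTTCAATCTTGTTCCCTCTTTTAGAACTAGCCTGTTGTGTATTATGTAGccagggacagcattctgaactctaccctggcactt
Ccl9: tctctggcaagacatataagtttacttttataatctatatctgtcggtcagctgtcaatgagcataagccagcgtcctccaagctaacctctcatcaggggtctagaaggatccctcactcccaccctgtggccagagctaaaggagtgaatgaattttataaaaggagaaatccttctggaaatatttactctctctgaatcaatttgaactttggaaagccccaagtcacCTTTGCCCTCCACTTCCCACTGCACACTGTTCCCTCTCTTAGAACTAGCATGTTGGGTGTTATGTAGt

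Cxcl9 and Cxcl10, both interferon-inducible, are shown because Cxcl9 was called lower in G609G and Cxcl10 did not pass, and Cxcl2 because its window holds motifs of NF-kB while its level stayed under the filter. Capitals mark matches, on either strand, to the interferon-stimulated response element (GAAA, any 2 bases and GAAA again) or to the NF-kB site (GGG, any 2 bases and TTTCC). The first is present in 3.44% of all 32851 promoter windows and the second in 1.63%. The windows are chr5:92328030-92328329 on the minus strand for Cxcl9, chr5:92348840-92349139 on the minus strand for Cxcl10 and chr5:90903649-90903948 on the plus strand for Cxcl2. The STAT motif (TTC, any 3 bases and GAA), also searched, is found in 8.3% of windows and in none of these. No motif overlapped another in them, and the Cxcl9 window matched none of the 3.
Cxcl9: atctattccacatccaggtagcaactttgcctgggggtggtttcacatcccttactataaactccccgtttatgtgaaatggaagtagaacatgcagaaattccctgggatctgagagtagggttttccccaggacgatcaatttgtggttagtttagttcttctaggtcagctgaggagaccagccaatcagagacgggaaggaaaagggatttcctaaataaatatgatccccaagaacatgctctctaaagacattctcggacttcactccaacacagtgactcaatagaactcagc
Cxcl10: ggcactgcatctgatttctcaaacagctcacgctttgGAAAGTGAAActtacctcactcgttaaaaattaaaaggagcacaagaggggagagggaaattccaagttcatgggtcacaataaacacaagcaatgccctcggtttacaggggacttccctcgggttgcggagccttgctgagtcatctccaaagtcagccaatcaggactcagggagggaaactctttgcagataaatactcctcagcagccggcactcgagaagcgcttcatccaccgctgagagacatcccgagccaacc
Cxcl2: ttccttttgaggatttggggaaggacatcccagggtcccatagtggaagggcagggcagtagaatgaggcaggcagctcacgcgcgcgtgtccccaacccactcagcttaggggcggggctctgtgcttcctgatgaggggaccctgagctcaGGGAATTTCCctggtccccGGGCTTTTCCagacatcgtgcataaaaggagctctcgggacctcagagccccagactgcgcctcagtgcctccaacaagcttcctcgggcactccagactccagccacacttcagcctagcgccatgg

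The comparison of G609G with WT asks which members differ in fat of the progeria model. The interferon-inducible Cxcl9 fell most of all members, 13.9-fold relative to the median gene, and the monocyte receptor Ccr2 and the membrane-anchored chemokines Cxcl16 and Cx3cl1 fell by 1.86-fold to 2.49-fold. The G609G means of Cxcl9, 5.63, and Ccr2, 5.38, lay little above the filter, so the sizes of their falls against WT or LCS are uncertain. The eosinophil chemokine Ccl24 was also called lower, with all G609G arrays under the filter. The B cell chemokine Cxcl13 rose 3.12-fold. Relative to the median gene 12 of the 26 tested members were called lower and 6 higher by limma (46.2% and 23.1%), against 36.7% lower and 34% higher of all 11342 tested genes. As deposited, 17 were lower and 2 higher (65.4% and 7.69%), against 71.3% and 8.26% of all genes. Quantile normalization gave 12 lower and 7 higher. The 3 arrays of each group did not overlap for 13 members lower and 7 higher in G609G relative to the median gene, against 36.9% lower and 34.7% higher of all genes, and for 18 lower and 1 higher as deposited, against 70.9% and 8.37%. The members' median log2 fold was -0.13 relative to the median gene, where that of all genes was -0.01, and -0.59 against -0.47 as deposited.

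Among the ligands, Cxcl9 had log2 values of 5.38, 5.45 and 6.05 in G609G, against 9.87, 9.81 and 9.99 in WT. The groups lay far apart, and the log2 fold was -3.80 relative to the median gene (SE 0.12, adjusted p = 7.46e-11) and -4.26 as deposited, rank 29 from the lowest of 11342 genes. All 8 probe sets of Cxcl9 were lower without overlap, by 1.34 to 5.03 on the log2 scale relative to the median gene (-5.03 to -1.34). Cxcl10, whose window above holds the interferon-stimulated response element, had 5.72, 5.22 and 5.46 in G609G, against 5.72, 5.39 and 5.76 in WT. These values overlapped, with a log2 fold of 0.31 relative to the median gene (SE 0.14, adjusted p = 0.0641) and of -0.15 as deposited, so the direction turns with the scaling. With the replicate number as a block on the 6 arrays, Cxcl10 passed relative to the median gene (adjusted p = 0.0189, or 0.0529 with the block over all 9), and likewise without G609G replicate 2 (adjusted p = 0.0217). Ccl5, a chemokine of T and natural killer cells, fell by 0.45 relative to the median gene (-0.45, SE 0.15, adjusted p = 0.0178), a call lost without G609G replicate 2 (adjusted p = 0.0741) or WT replicate 3 (adjusted p = 0.0847).

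Ccl24, an eosinophil chemokine also known as eotaxin 2, had 4.90, 4.75 and 4.79 in G609G, against 6.35, 6.29 and 6.21 in WT. The G609G arrays lay under the filter, which the gene passed through its WT and LCS arrays, so the size of the fall is uncertain. Its fitted log2 fold was -1.01 (SE 0.10, adjusted p = 1.51e-06). Cxcl16, made as a membrane protein and shed as a ligand of Cxcr6, had 6.32, 6.48 and 6.52 in G609G, against 7.82, 7.73 and 7.96 in WT. The groups did not overlap for either gene, and for Cxcl16 the log2 fold was -0.93 (SE 0.07, adjusted p = 2.73e-07), with all 6 probe sets lower. Cx3cl1, the ligand of Cx3cr1 and likewise membrane-anchored, had 6.76, 6.47 and 6.78 in G609G, against 8.06, 7.96 and 8.07 in WT. It fell by 0.90 (-0.90, SE 0.08, adjusted p = 7.68e-07), and all 11 of its probe sets were lower relative to the median gene, 8 of them without overlap.

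Among the monocyte chemoattractants of the Ccl2 family, Ccl8 and Ccl2 were called lower relative to the median gene and Ccl7 did not pass, while Ccl12 was under the filter. Ccl8 changed by -0.65 (SE 0.14, adjusted p = 0.00123) and Ccl2 by -0.50 (SE 0.13, adjusted p = 0.00464). The G609G mean of Ccl2, 5.32, lay little above the filter, so the size of its fall is uncertain. The 7 probe sets of Ccl2 disagreed relative to the median gene, 4 lower and 3 higher, from -1.50 to 0.64. As deposited 6 of them were lower and 1 higher. For Ccl7, at -0.32 (SE 0.14), adjusted p was 0.0572 relative to the median gene, and as deposited it was called lower (-0.78, adjusted p = 8.42e-05). Relative to the median gene 4 of its 6 probe sets were lower and 2 higher, from -1.68 to 0.77. On that scale Ccl7 passed with the replicate number as a block (adjusted p = 0.0132 over 9 arrays and 0.0231 over the 6). It also passed without G609G replicate 1 (adjusted p = 0.000205), the array in which it stood highest (6.97, against 6.38 and 6.45 in the other G609G arrays). Ccl9 fell by 0.35 (-0.35, SE 0.04, adjusted p = 1.22e-05), with 5 of 6 probe sets lower. The eosinophil chemokine Ccl11 (-0.14, SE 0.04) and Ccl6 (-0.11, SE 0.03) moved by amounts that their close replicates still separated, with adjusted p = 0.00807 and 0.00976. As deposited, Ccl6 had 9.59, 9.63 and 9.61 in G609G, against 10.20, 10.13 and 10.23 in WT.

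Cxcl13, the ligand of Cxcr5, had 8.32, 8.33 and 8.43 in G609G, against 7.12, 7.24 and 7.20 in WT. The G609G arrays were all above the WT arrays, with a log2 fold of 1.64 relative to the median gene (SE 0.06, adjusted p = 1.1e-10) and 1.18 as deposited (adjusted p = 2.05e-09), rank 189 from the highest. All 6 of its probe sets were higher without overlap, by 0.99 to 2.01. The other ligands called higher relative to the median gene were Ccl3, a chemokine of activated macrophages (0.58, SE 0.12, adjusted p = 0.000889), Cxcl17, a mucosal chemokine (0.57, SE 0.13, adjusted p = 0.00181), and Cxcl12, the stromal ligand of Cxcr4 (0.24, SE 0.06, adjusted p = 0.00395). As deposited, Ccl3 (0.11) and Cxcl17 (0.11) did not pass, with adjusted p = 0.403 for both, and Cxcl12 was called lower (-0.23, adjusted p = 0.016), so that its direction turns with the scaling. The deposited Cxcl12 call was lost without G609G replicate 1 (adjusted p = 0.0815) or WT replicate 3 (adjusted p = 0.0653). Ccl3 and Cxcl17, like the receptors Ccr10 and Cxcr4 below, lie in the range of levels where the median deposited fold was -0.30. Ccl17, a ligand of Ccr4, and Cxcl14, a chemokine of epithelium and stroma, did not pass relative to the median gene (0.21 and 0.17, adjusted p = 0.138 and 0.104), though Cxcl14 did without G609G replicate 3 (adjusted p = 0.0109). As deposited, Cxcl14 was called lower (-0.30, adjusted p = 0.00794), and Ccl17 at -0.26 had adjusted p = 0.0643, or 0.0322 with the block over 9 arrays, 0.0414 over the 6 and 0.0441 without LCS replicate 1.

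Among the receptors, Ccr2 had 5.47, 5.26 and 5.41 in G609G, against 7.07, 7.21 and 7.21 in WT. The groups did not overlap, and Ccr2 fell by 1.32 relative to the median gene (-1.32, SE 0.08, adjusted p = 3.12e-08), with all 4 probe sets lower. Cxcr7, which binds Cxcl12 and takes it up without G protein signalling, had 7.25, 7.29 and 7.59 in G609G, against 8.20, 8.13 and 8.19 in WT. It fell by 0.34 (-0.34, SE 0.07, adjusted p = 0.00166). Cxcr4, the signalling receptor of Cxcl12, had 5.69, 5.71 and 5.95 in G609G, against 5.67, 5.80 and 5.89 in WT. These deposited values overlapped (log2 fold -0.01, adjusted p = 0.965), and relative to the median gene Cxcr4 was called higher (0.46, SE 0.09, adjusted p = 0.000528).

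Ccr10, a receptor of Ccl27 and Ccl28, had 5.58, 5.46 and 5.37 in G609G, against 5.04, 5.45 and 4.99 in WT. WT replicate 2 lay among the G609G arrays, and Ccr10 was called higher on both scales (0.77, SE 0.14, adjusted p = 0.000401 relative to the median gene, and 0.30, adjusted p = 0.0371 as deposited). The deposited Ccr10 call was lost without G609G replicate 1 or 2 or WT replicate 1 or 3, with adjusted p from 0.0665 to 0.15. Ccr1, a receptor of Ccl3, Ccl5 and Ccl7, had 4.31, 4.31 and 4.39 in G609G, all under the filter, against 4.91, 4.92 and 5.34 in WT. It was lower as deposited (-0.72, adjusted p = 0.000447), while relative to the median gene the log2 fold was -0.26 (adjusted p = 0.125, or 0.0493 with the block on the 6 arrays). The lymph node homing receptor Ccr7 had 5.93, 6.32 and 5.76 in G609G, against 6.29, 6.36 and 6.29 in WT, and the fractalkine receptor Cx3cr1 had 6.37, 5.65 and 5.78 in G609G, against 6.18, 6.39 and 6.17 in WT. In both genes a single G609G array reached the WT values, replicate 2 in Ccr7 and replicate 1 in Cx3cr1, and neither passed relative to the median gene (adjusted p = 0.384 and 0.462). As deposited, Ccr7 had a log2 fold of -0.31 with adjusted p = 0.0524, and passed with the block (adjusted p = 0.0151 over 9 arrays and 0.0329 over the 6) and without G609G replicate 2 (adjusted p = 0.00394), LCS replicate 2 (0.0492) or LCS replicate 3 (0.0409), and Cx3cr1 at -0.31 (adjusted p = 0.0809) passed without G609G replicate 1 (adjusted p = 0.00107). The scavenging receptor Ccrl1 had 5.41, 5.12 and 5.33 in G609G, against 5.72, 5.66 and 5.75 in WT, lower as deposited (-0.43, adjusted p = 0.000909) and 0.04 relative to the median gene (adjusted p = 0.731).

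Most macrophage markers were lower in the same arrays. The mean log2 level of 10 such genes was 7.61 to 7.80 in G609G, 9.01 to 9.10 in LCS and 8.65 to 8.74 in WT. Relative to the median gene 6 were called lower and 2 higher in G609G, against 36.7% and 34% of all genes. As deposited 9 were lower, against 71.3% of all genes. Mertk, one of the 9, was called lower as deposited (-0.18, adjusted p = 0.0234) and higher relative to the median gene (0.29, adjusted p = 0.000154). For T cells only 3 of 8 measured markers passed the filter, and Cd3d, Cd3g, Cd4, Cd8a and Cd8b1 were under it. Their mean level, as deposited here and for the cell types below, was 4.57 to 4.73 in G609G, 4.85 to 4.93 in LCS and 4.78 to 4.87 in WT. Of the 3 tested, Cd3e (0.42) and Cd5 (0.45) were called higher in G609G relative to the median gene and 0 lower. As deposited 0 were higher and 1 lower. For B cells 3 of 5 passed, with Ms4a1 and Blk under the filter. Mean levels were 4.71 to 4.87 in G609G, 5.43 to 5.48 in LCS and 5.07 to 5.13 in WT. Relative to the median gene Pax5 was called higher in G609G (0.30) and Cd79b lower (-0.29), while as deposited 0 were higher and 2 lower. For natural killer cells 2 of 5 passed, with Ncr1, Klrd1 and Gzmb under the filter. Mean levels were 4.50 to 4.57 in G609G, 5.52 to 5.67 in LCS and 5.28 to 5.40 in WT. Relative to the median gene Klrb1c was called lower in G609G (-2.53) and Prf1 higher (0.32), while as deposited Klrb1c alone was called, as lower. The part of these cell types in the folds of the members was not tested.

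**Figure D1:**
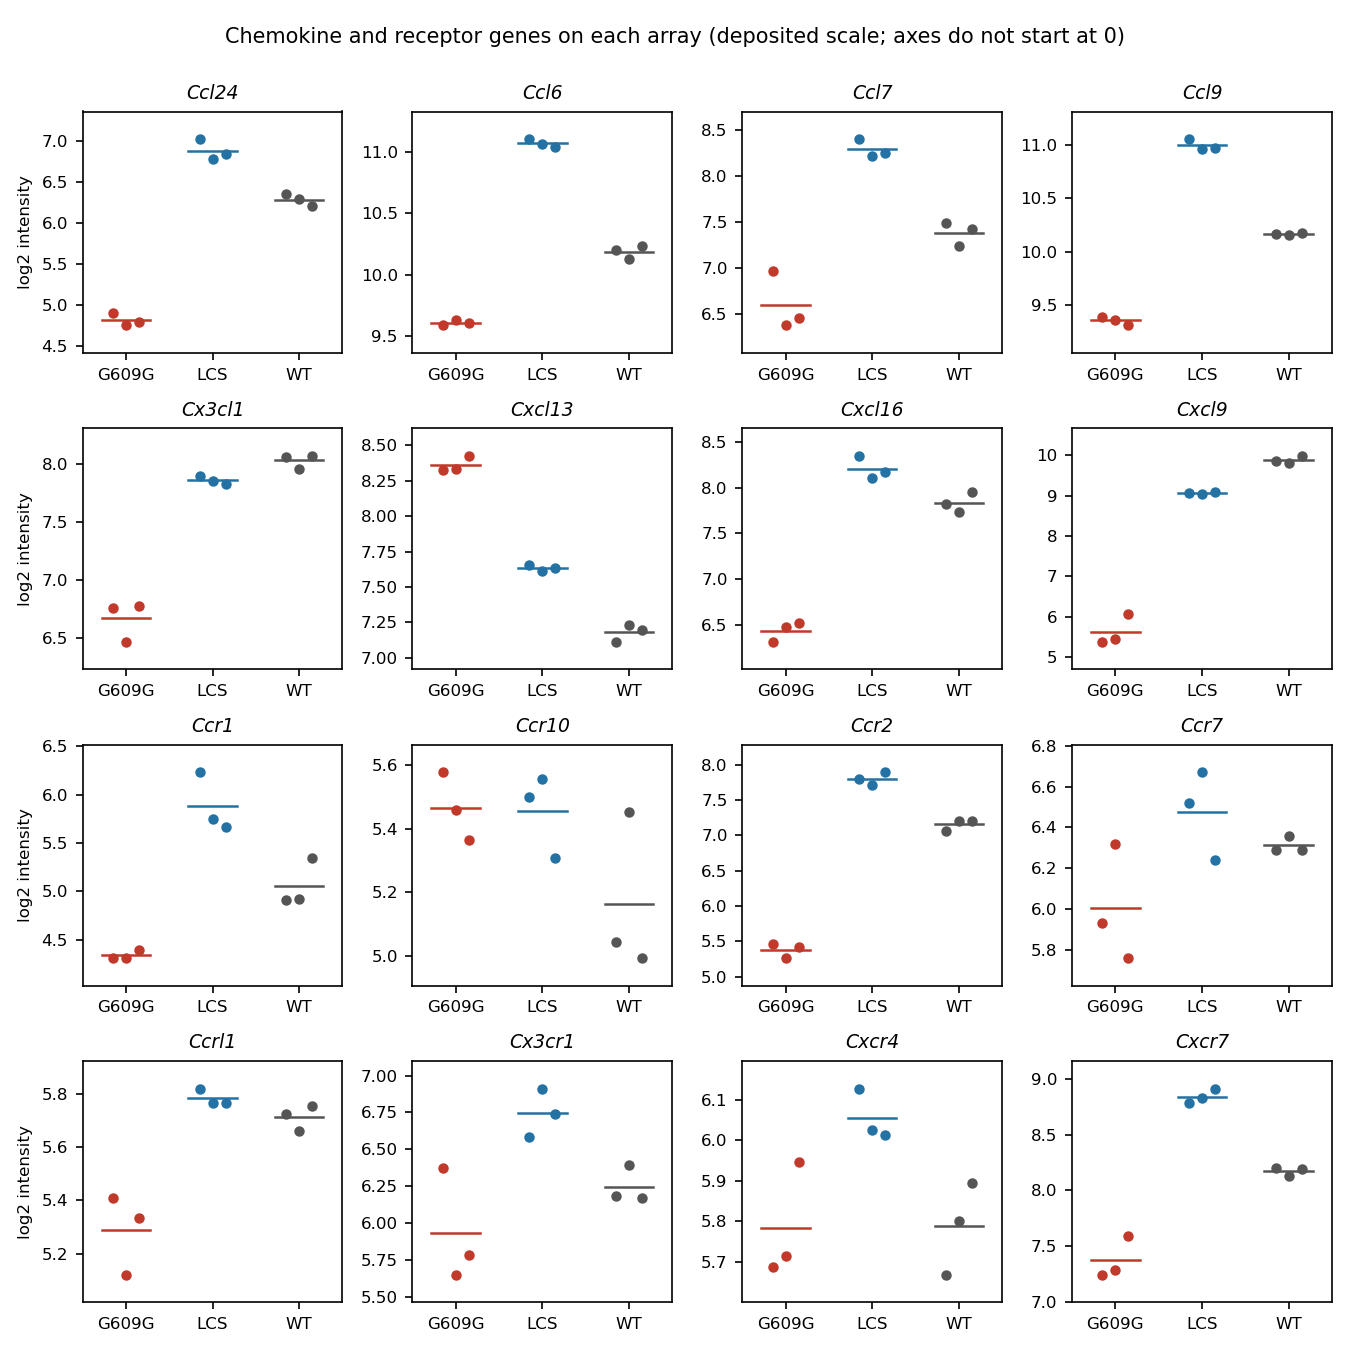
Log2 intensity (vertical axis, deposited scale, not starting at 0) of 16 members on each array, with G609G, LCS and WT from left to right, a point per array and a line at the mean of 3. Cxcl9 sits between 5.38 and 6.05 in G609G and above 9 in LCS and WT, and Ccl6, Ccl7, Ccl9, Ccr2 and Cxcr7 are lowest in G609G and highest in LCS.

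The comparison of LCS with WT asks which members differ in fat of mice with the LCS allele. Here the myeloid chemokines Ccl7, Ccl6 and Ccl9 rose by 1.78-fold to 1.88-fold as deposited, and the receptors Cxcr7 and Ccr2 by 1.59-fold and 1.56-fold, while Cxcl9 fell 1.77-fold and Ccl5 1.48-fold. On the deposited scale 12 of the 26 tested members were called higher and 2 lower by limma (46.2% and 7.69%), against 22.5% higher and 13% lower of all genes. Ccr1, counted among the 12, passed the filter only through its LCS arrays. The members' median log2 fold was 0.26, where that of all genes was 0.05. The 3 arrays of each group did not overlap for 14 members higher and 3 lower, against 32.8% and 19.4% of all genes. Relative to the median gene 11 were higher and 2 lower, against 22.3% and 17.7% of all genes, and 13 and 3 did not overlap, against 32% and 25.9%, Cx3cr1 being the one that no longer passed (adjusted p = 0.0547).

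Ccl7, a monocyte chemoattractant that acts on Ccr2 and Ccr1, had 8.40, 8.22 and 8.26 in LCS, against 7.48, 7.24 and 7.42 in WT. Its log2 fold was 0.91 (SE 0.13, adjusted p = 9.1e-05), rank 86 from the highest of 11342 genes, and all 6 probe sets were higher. Ccl6 had 11.10, 11.06 and 11.04 in LCS, against 10.20, 10.13 and 10.23 in WT. All of its 7 probe sets were higher without overlap, by 0.76 to 1.02, and the gene's log2 fold was 0.88 (SE 0.04, adjusted p = 6.3e-10). Ccl9, whose window holds the aligned stretch shown above, had 11.05, 10.96 and 10.97 in LCS, against 10.17, 10.15 and 10.18 in WT. The 2 genes moved by like amounts, Ccl9 by 0.83 (SE 0.04, adjusted p = 1.78e-09). Whether probes of one also bind transcripts of the other was not tested.

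Ccl2, the main ligand of Ccr2, had 7.02, 6.44 and 6.97 in LCS, against 6.23, 6.33 and 6.27 in WT. It rose by 0.53 (SE 0.13, adjusted p = 0.00519), with LCS replicate 2 close to the WT arrays. Ccl24 rose by 0.60 (SE 0.10, adjusted p = 0.000196), with 7.02, 6.78 and 6.84 in LCS, against 6.35, 6.29 and 6.21 in WT. Cxcl16 rose by 0.37 (SE 0.09, adjusted p = 0.00621), Cxcl13 by 0.45 (SE 0.07, adjusted p = 0.000211) and Ccl11 by 0.17 (SE 0.04, adjusted p = 0.0051), the last with 2 of its 5 probe sets higher without overlap. Cxcl13 was thus the member called higher against WT in both mutants on either scale, with 7.66, 7.61 and 7.63 in LCS, against 7.12, 7.24 and 7.20 in WT. The 2 comparisons share their WT arrays.

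Cxcl9 fell in LCS as well, with 9.06, 9.04 and 9.09 in LCS, against 9.87, 9.81 and 9.99 in WT. The log2 fold was -0.82 (SE 0.13, adjusted p = 0.000235), and all 8 probe sets were lower, by 0.63 to 1.07 (-1.07 to -0.63). Ccl5 had 7.68, 7.76 and 7.45 in LCS, against 7.98, 8.10 and 8.51 in WT. These did not overlap, and Ccl5 fell by 0.57 (-0.57, SE 0.16, adjusted p = 0.0113), a call lost without LCS replicate 3 (adjusted p = 0.0548) or WT replicate 3 (adjusted p = 0.0647). Ligands that did not pass were Ccl8 (0.25), Cxcl10 (0.24), Cxcl12 (0.13), Cxcl14 (0.06), Cxcl17 (0.06), Ccl3 (-0.15), Cx3cl1 (-0.17) and Ccl17 (-0.22), with adjusted p from 0.17 to 0.723. With the replicate number as a block on the 6 arrays, Ccl8 and Cxcl12 passed (adjusted p = 0.0176 and 0.0467). Over all 9 arrays they did not (adjusted p = 0.137 and 0.144). Cx3cl1 had 7.90, 7.85 and 7.83 in LCS, against 8.06, 7.96 and 8.07 in WT.

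Of the receptors, Ccr1 had 6.23, 5.75 and 5.66 in LCS, against 4.91, 4.92 and 5.34 in WT. Its WT mean of 5.06 and its G609G mean of 4.34 were under the filter, so the gene was tested only because it was high in LCS. With that limit, its fitted log2 fold was 0.82 (SE 0.15, adjusted p = 0.000528), and all 5 probe sets were higher without overlap. Ccr2 had 7.80, 7.72 and 7.89 in LCS, against 7.07, 7.21 and 7.21 in WT, a rise of 0.65 (SE 0.09, adjusted p = 6.69e-05). Cxcr7 had 8.79, 8.82 and 8.91 in LCS, against 8.20, 8.13 and 8.19 in WT, a rise of 0.67 (SE 0.09, adjusted p = 4.1e-05). Of the 8 tested receptors, 6 stood above WT on every LCS array, against 32.8% of all genes. They were Ccr1, Ccr2 and Cxcr7, and also Cx3cr1, Cxcr4 and Ccrl1 below, of which Cxcr4 and Ccrl1 were not called.

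Cx3cr1 had 6.58, 6.91 and 6.74 in LCS, against 6.18, 6.39 and 6.17 in WT, without overlap. Its rise of 0.50 (SE 0.16, adjusted p = 0.0233) lost its call without LCS replicate 2 or 3 or WT replicate 1 or 3, with adjusted p from 0.0566 to 0.0965. Cxcr4, with 6.13, 6.02 and 6.01 in LCS, against 5.67, 5.80 and 5.89 in WT, had a log2 fold of 0.27 and adjusted p = 0.0529, which passed without WT replicate 3 (0.0369), G609G replicate 1 (0.048) or G609G replicate 3 (0.0237). Ccr10 had 5.50, 5.56 and 5.31 in LCS, against 5.04, 5.45 and 4.99 in WT (0.29, adjusted p = 0.0851), and passed without WT replicate 2 (adjusted p = 0.0113). Ccr7 had 6.52, 6.67 and 6.24 in LCS, against 6.29, 6.36 and 6.29 in WT (0.16, adjusted p = 0.398), and Ccrl1 had 5.82, 5.76 and 5.77 in LCS, against 5.72, 5.66 and 5.75 in WT (0.07, adjusted p = 0.622). In LCS 7 of 10 macrophage markers were called higher by limma, against 22.5% of all genes, with the levels given above. Their part in these rises was not tested.

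**Figure D2:**
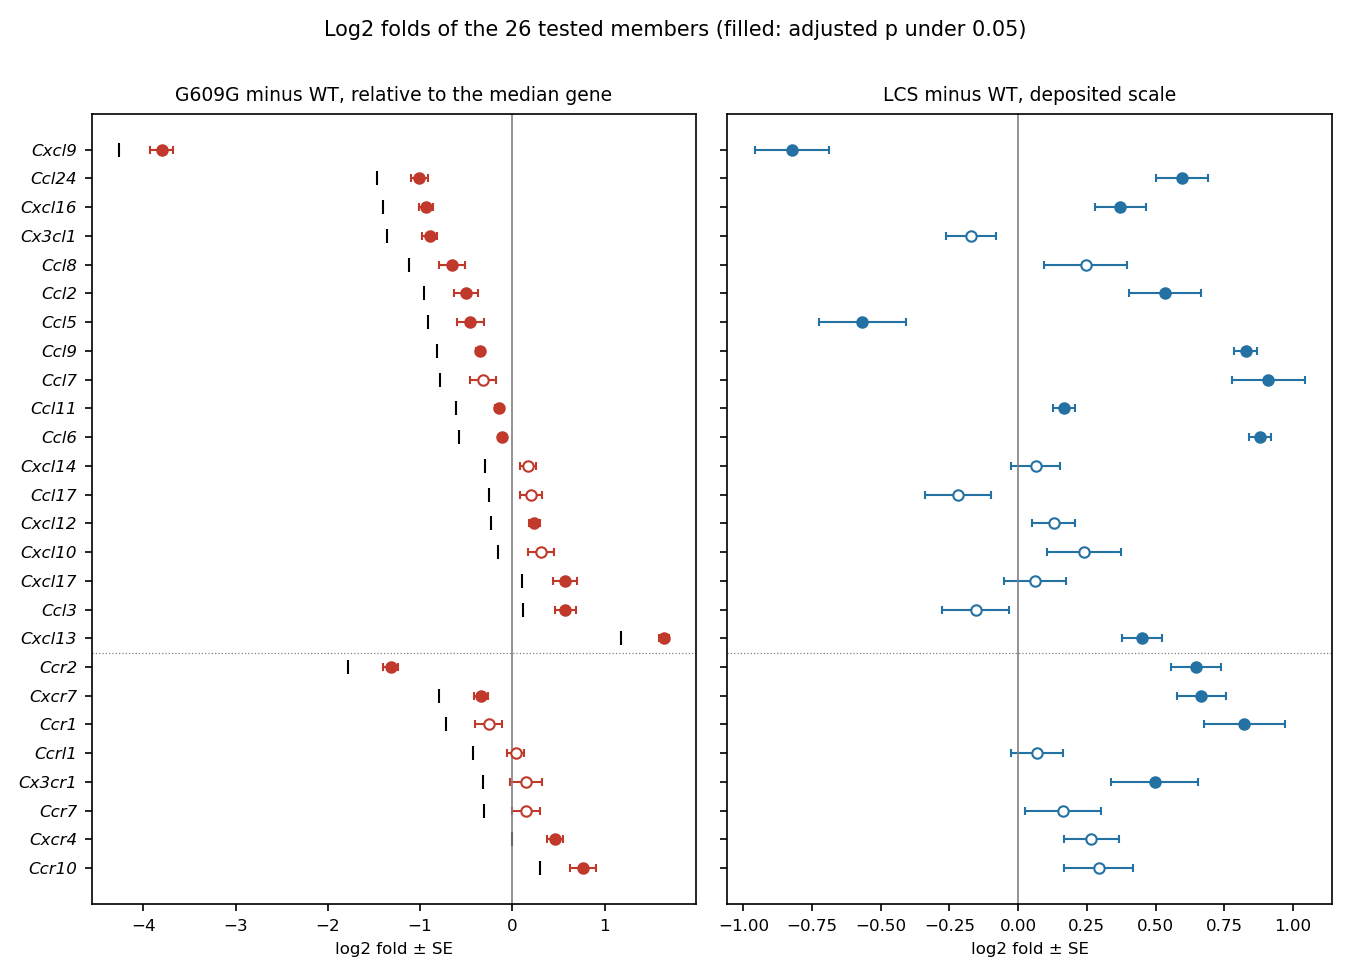
Log2 fold with its standard error (horizontal axes, of different range) of the 26 tested members, ligands above the dotted line and receptors under it; the left panel gives G609G minus WT relative to the median gene, with a short black line at the deposited fold, and the right panel LCS minus WT as deposited. Filled points passed an adjusted p of 0.05; Cxcl9 is at -3.80 and -0.82, and Ccl7, Ccl6 and Ccl9 are the highest ligands on the right.

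**Figure D3:**
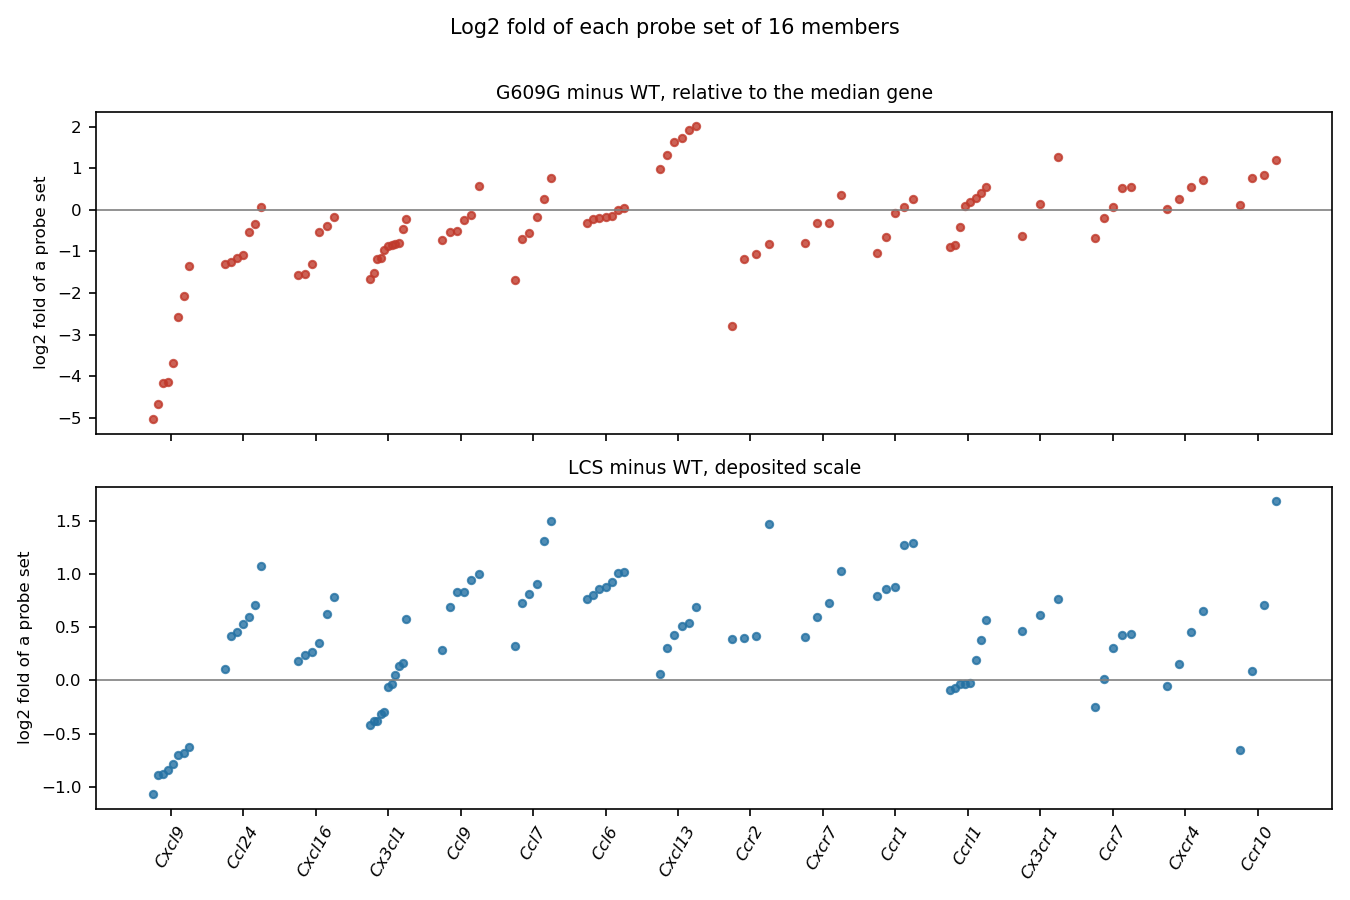
Log2 fold (vertical axis) of every probe set of 16 members, ordered within each gene by size, for G609G minus WT relative to the median gene (above) and LCS minus WT as deposited (below). All 8 probe sets of Cxcl9 lie below 0 in both panels, and all 6 of Cxcl13 above 0. In the upper panel those of Ccl6, Ccl7, Ccl9, Ccl24, Ccr1, Ccr7, Ccrl1, Cx3cr1 and Cxcr7 fall on both sides.

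Set directly against each other, the members with the largest log2 folds between G609G and LCS relative to the median gene were Cxcl9, Ccr2, Ccl24 and Cxcl16, all lower in G609G, followed by Cxcl13, which was higher. Relative to the median gene 13 members were called lower in G609G and 6 higher (50% and 23.1% of 26), against 36.9% lower and 36.9% higher of all genes, and as deposited 20 were lower and 1 higher, against 70.5% and 9.38%. Quantile normalization gave 13 lower and 7 higher. The arrays did not overlap for 13 members lower and 6 higher relative to the median gene, against 37.6% and 37.7% of all genes, and for 19 lower and 1 higher as deposited, against 71.3% and 9.96%. The members' median log2 fold was -0.29, where that of all genes was 0.02. This comparison uses the same arrays as those with WT. Relative to the median gene, Cxcl9 was lower by 2.94 (-2.94, SE 0.12, adjusted p = 6.23e-10), Ccr2 by 1.93 (-1.93, SE 0.08, adjusted p = 7.36e-10) and Ccl24, under the filter in G609G, by 1.57 (-1.57, SE 0.10, adjusted p = 2.11e-08). Cxcl16 (-1.27, SE 0.07), Ccl7 (-1.19, SE 0.14), Ccl9 (-1.14, SE 0.04), Ccr1 (-1.05, SE 0.14, with its G609G arrays under the filter), Ccl2 (-0.996, SE 0.13) and Cxcr7 (-0.97, SE 0.07) followed, with adjusted p from 1.87e-10 to 3.23e-05. Cxcl13 was higher in G609G than in LCS, by 1.22 (SE 0.06, adjusted p = 1.39e-09). For Ccl5, which fell against WT in both mutants, the difference between the mutants was 0.15 relative to the median gene (SE 0.15, adjusted p = 0.392) and -0.35 as deposited (adjusted p = 0.0543), and it passed without G609G replicate 2 in the first case (adjusted p = 0.045). In the second it passed without G609G replicate 3, LCS replicate 3, WT replicate 1 or WT replicate 3, with adjusted p from 0.0126 to 0.0491. Cxcr4 was called higher in G609G relative to the median gene (0.23, adjusted p = 0.034) and lower as deposited (-0.27, adjusted p = 0.0227), so its direction turns with the scaling. The first Cxcr4 call was lost without G609G replicate 3 or any 1 LCS array (adjusted p from 0.051 to 0.103), and the second without G609G replicate 1 or 2 or LCS replicate 1 (adjusted p from 0.0719 to 0.0835).

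The members that were not tested were dim or had few probe sets. The neutrophil chemokines Cxcl1, Cxcl2, Cxcl3 and Cxcl5, ligands of Cxcr2, were under the filter in each group's mean, between 3.73 and 4.91. The NF-kB motif was found in the windows of Cxcl1, Cxcl2 and Cxcl3. It lay 89 and 71 bases before the start of Cxcl1, 97 and 78 bases for Cxcl2 and 73 bases for Cxcl3. Among the 17 tested members with a matched window, it was found in Ccl9 alone. Cxcl5 and the other tested members, among them Ccl2 and Ccl5, had no matched window and were not searched. Also under the filter in all 3 group means were the ligands Ccl1, Ccl4, Ccl12, Ccl20, Ccl22, Ccl25, Ccl26, Cxcl11 and Cxcl15 and the receptors Ccr6, Ccr9, Cxcr5 and Cxcr6, and among genes of fewer than 3 probe sets Ccr3, Ccr4 and Cxcr3. Cxcr3, the receptor of Cxcl9, Cxcl10 and Cxcl11, had 2 probe sets and gene values of 3.85, 4.00 and 3.71 in G609G and 4.71, 4.57 and 4.33 in LCS, against 4.87, 4.63 and 4.42 in WT. Its values on every array lay under the filter, the G609G arrays lowest. Ccl27a, Ccl28 and Ccr1l1, with 1 or 2 probe sets, had values above the filter on at least some arrays. Ccl28, a mucosal ligand of Ccr10 with a single probe set, had 7.86, 8.11 and 7.92 in G609G and 8.73, 8.52 and 8.51 in LCS, against 8.31, 8.17 and 7.64 in WT. A low array signal does not show that a transcript is absent.

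Other genes of the chemokine system came from lists of symbols. Of the family members and atypical receptors outside the symbol rule, 7 were tested, of which 4 were higher and 2 lower in G609G relative to the median gene. The 4 higher calls were made on that scale alone, and as deposited 2 of the 7 were lower. In LCS as deposited 2 were higher and 1 lower. The platelet and macrophage chemokine Pf4 fell in G609G (-0.72, SE 0.04) and rose in LCS (0.30, SE 0.07), the platelet chemokine Ppbp fell in both (-0.57, SE 0.08, and -0.45, SE 0.09), the lymphocyte chemokine Xcl1 was called higher in G609G relative to the median gene (0.63) and did not pass as deposited (0.17, adjusted p = 0.114), and the decoy receptor Ccbp2 rose in LCS (0.86, SE 0.16, adjusted p = 0.000841). Of 21 genes of receptor signalling 14 were lower and 3 higher in G609G, with a median log2 fold of -0.25 relative to the median gene, or 20 and 1 with a median of -0.71 as deposited, and 12 were higher and 1 lower in LCS, with a median of 0.20. The leukocyte GTPase Rac2 (-1.65) and the inhibitory G protein subunit Gnai2 (-0.54) fell in G609G, the G protein regulator Rgs2 rose in G609G (1.77) and fell in LCS (-0.66), and Rac1 rose in LCS (0.28). These counts stand beside 36.7% lower and 34% higher of all genes in G609G relative to the median gene, and 71.3% and 8.26% as deposited. In LCS 22.5% of all genes were higher and 13% lower as deposited.

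The counts of the next lists stand beside the shares of all genes. In G609G 36.7% of all genes were called lower and 34% higher relative to the median gene, and 71.3% and 8.26% as deposited. In LCS 22.5% were higher and 13% lower as deposited. Of 12 leukocyte adhesion genes 6 fell and 2 rose in G609G relative to the median gene, against 10 and 1 as deposited, and 6 rose in LCS. Icam2, one of the 6 that fell (-0.20, adjusted p = 0.0398), lost that call with the replicate number as a block (adjusted p = 0.0724 on the 6 arrays). The integrin chains Itgb2 (-0.92) and Itgam (-0.73) and the selectin ligand Selplg (-1.04) fell in G609G, and Itgam (0.71), Itgb2 (0.68) and Icam2 (0.51) rose in LCS. Of 12 cytokine and NF-kB genes 4 rose and 3 fell in G609G relative to the median gene, whereas 3 rose and 7 fell as deposited, with the NF-kB inhibitor Nfkbia higher (1.70) and the receptors Tlr4 (-0.97) and Tnfrsf1a (-0.24) lower, and 2 rose in LCS, Tnfrsf1a (0.43) and Nfkbia (0.17). Of 12 genes for shedding, cleavage and glycosaminoglycan binding 9 fell and 3 rose in G609G relative to the median gene, against 10 and 1 as deposited. The protease Adam10, which sheds Cx3cl1 and Cxcl16, fell in G609G (-1.03) and had a log2 fold of 0.02 in LCS (adjusted p = 0.846). The syndecan Sdc1 fell (-1.71) and Sdc4 rose (1.70) in G609G, and in LCS 5 genes rose and 2 fell, with the macrophage elastase Mmp12 at 1.17 and Sdc4 at 0.66.

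**Figure D4:**
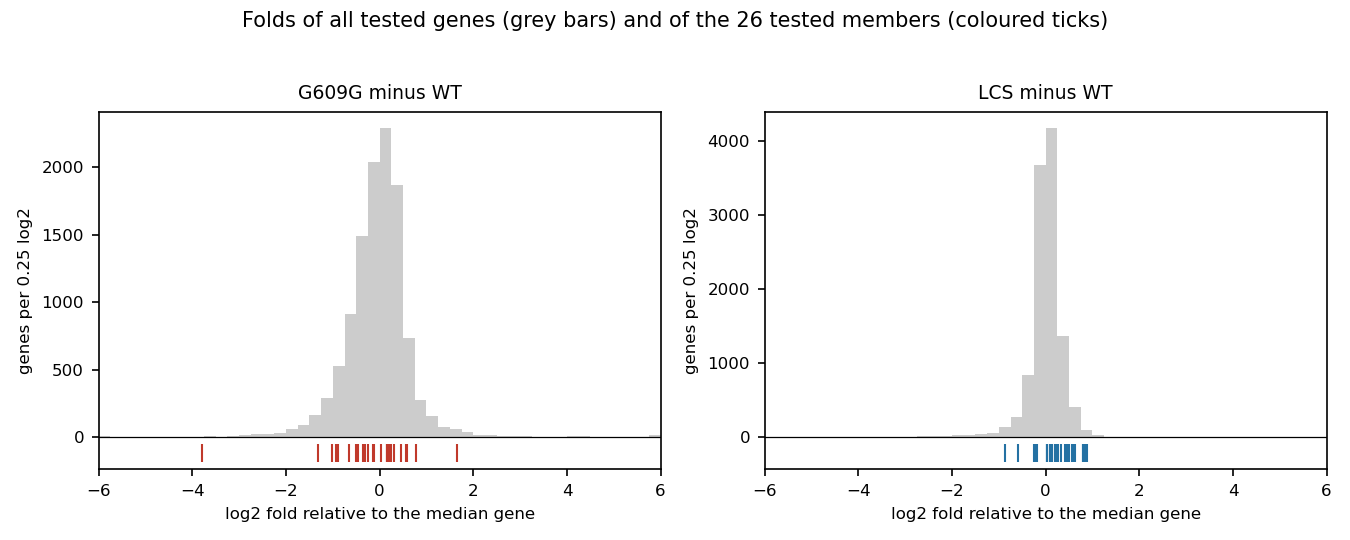
Number of genes (vertical axis) by log2 fold relative to the median gene in steps of 0.25 (horizontal axis) for the 11342 genes tested, in G609G minus WT on the left and LCS minus WT on the right, with the 26 tested members as coloured ticks; the 25 genes beyond the axis on the left are counted in its end bars. The Cxcl9 tick lies far to the left in the left panel, and most ticks of the right panel lie to the right of 0.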

How the data were processed

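The labels describe exon arrays with RNA prepared by a terminal labelling kit. The authors deposited log2 intensities of 229581 probe sets on 9 arrays; the software and normalization are not given in the sources used here, and the build named in the submitters' processing notes is mm9. Their design text counts 10 samples, of which the 9 given were analysed. The platform annotation gave 208397 probe sets a single symbol, 3965 more than one and 17219 no symbol; only those with a single symbol were used, 252 of them for the members. Gene values came from median polish, stopped after 10 rounds at the latest. A gene was tested when it had 3 or more probe sets and its mean exceeded the 25th percentile of such genes (5.09). Tests used limma (lmFit, then eBayes with an intensity trend) on all 9 arrays together, two-sided, with Benjamini-Hochberg adjustment over 11342 genes and a threshold of 0.05. For values relative to the median gene, the median deviation of an array from the gene means was subtracted from that array. Groups and replicate numbers come from the titles. At most 1.89% of values were identical between any 2 arrays. Deviations of same-numbered G609G and WT arrays correlated with r = 0.168, 0.145 and 0.337. Those of LCS and WT gave -0.113, 0.204 and 0.0854, and those of G609G and LCS gave -0.121, 0.121 and 0.107. The main fit did not use the replicate numbers, so its p-values ignore any pairing. Fits with the replicate number as a block were run as alternatives in every comparison. Beside the results they are given for G609G minus WT and, for members as deposited, for LCS minus WT. The members and lists were chosen with earlier results of these data known. Values on every array are given for the 6 members with the largest folds among those called in each comparison and for every tested receptor; other tested members are given by fold, and each list by at most 3 genes per comparison. Array values of Ccl2, Ccl5, Cxcl10, Ccl28 and Cxcr3 were added after they had been seen. The number of arrays limits the precision. Alternatives changed the summary of probe sets, the scaling, the filter, the model and the arrays used. The fit was tested on simulated data. Versions were R 4.3.3, limma 3.58.1, Python 3.11.15, Biopython 1.88 and matplotlib 3.10.9.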

Additional observations from a re-analysis of the deposited data

How the results depend on the processing

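Of 1522 comparisons of 80 gene results, over 16 named members, with their alternatives, 1396 kept direction and side of the threshold, 60 lost a call, 34 gained one and 32 turned direction; except where the construction below shows it, the cause was not tested. As deposited, 2 members were higher and 17 lower in G609G than in WT. The higher count was 1 with the median of probe sets, with a mean above the 50th percentile (12 members tested), with array weights, with a fold of 1.5 added and with the methods' t-test at a fold of 1.5, before and after Benjamini-Hochberg adjustment. It was 4 with no intensity filter (43 members tested) and with no filter and a minimum of 1 probe set (49 tested, chosen after seeing the data), 6 relative to the median gene and 7 with quantile normalization. The lower count was 12 with either scaling and 11 above the 50th percentile. For LCS minus WT, 12 were higher and 2 lower. The higher count was 7 above the 50th percentile, 7 with a fold of 1.5 added, and 7 by the methods' t-test or 6 after adjustment, and the lower count was 1 with the median of probe sets, with a fold of 1.5 added and by the methods' t-test before and after adjustment. For G609G minus LCS, 1 was higher and 20 lower. The higher count was 2 with the mean of probe sets, with no filter, with no filter and 1 probe set, and with the replicate block over 9 or 6 arrays, 6 relative to the median gene and 7 with quantile normalization; the lower count was 13 with either scaling and 11 above the 50th percentile.

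Leaving out 1 array at a time gave 1 to 2 higher and 16 to 18 lower in G609G minus WT, 11 to 13 higher and 1 to 2 lower in LCS minus WT, and 1 to 2 higher and 18 to 21 lower in G609G minus LCS. Relative to the median gene, where leaving out arrays and the block were added after seeing the data, it gave 6 to 7 higher and 11 to 13 lower in G609G minus WT, and 5 to 7 higher and 13 to 14 lower in G609G minus LCS. In G609G minus WT, the replicate block changed the calls given beside the results and no other call of the 26 tested members.

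Turned log2 folds of G609G minus WT were, relative to the median gene, Ccr7 at 0.15, Ccrl1 at 0.04, Cx3cr1 at 0.15 and Cxcr4 at 0.46, with quantile normalization Ccr7 at 0.26, Cx3cr1 at 0.24 and Cxcr4 at 0.50, and with the median of probe sets Ccr7 at 0.037. In LCS minus WT the median of probe sets gave Ccr10 at -0.12 and Cx3cl1 at 0.03. In G609G minus LCS, Ccr7 was at 0.024 relative to the median gene and 0.072 with quantile normalization, Ccrl1 at 0.0021 and Cxcr4 at 0.23 relative to the median gene, Cxcr4 at 0.18 with quantile normalization, and Ccr10 at -0.19 with the mean of probe sets. With 1 array left out at a time, folds that took both signs ranged from -0.087 to 0.049 for Cxcr4 in G609G minus WT and from -0.062 to 0.063 for Ccr10 in G609G minus LCS as deposited. Relative to the median gene they ranged from -0.015 to 0.29 for Ccr7, from -0.041 to 0.11 for Ccrl1 and from -0.087 to 0.28 for Cx3cr1 in G609G minus WT, and from -0.14 to 0.17 for Ccr7 and from -0.071 to 0.080 for Ccrl1 in G609G minus LCS.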
